A study of Homo sapiens with 4 samples.

Results

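Of the 23287 gene symbols quantified in progestin-treated and vehicle-treated T47D cells, the 9 described here are well-known long noncoding RNA (lncRNA) genes, namely *MALAT1*, *NEAT1*, *H19*, *GAS5*, *MIR205HG*, *SNHG1*, *SNHG8*, *TUG1* and *MEG3*. They were picked by symbol with their FPKM values, the status of each estimate and the binding sites of the progesterone receptor (PR) in or within 50 kb of each gene already in view, so those values are given as a description without a test. T47D is an established human line of luminal breast cancer cells with abundant PR, which the synthetic progestin R5020 activates. Cells kept in charcoal-stripped serum, which is depleted of steroids, received 10 nM R5020 or its vehicle ethanol (EtOH) for 3 h before poly(A)+ RNA was taken for sequencing. For ChIP-seq, an antibody against the PR was used on cells that had received 10 nM R5020 for 1 h. These cells too were kept in charcoal-stripped serum, for longer than the cells used for RNA. There was 1 RNA library per condition and 1 ChIP library, all from the same cell line, so no difference could be checked against replicates and p-values are not given.

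LncRNAs are transcripts that are often spliced and polyadenylated like mRNAs but are not known to be translated. Some build nuclear bodies, some are the spliced hosts from whose introns small nucleolar RNAs (snoRNAs) or microRNAs (miRNAs) are cut, and some belong to imprinted loci, where only the copy from a given parent is expressed. In breast cancer cells several of them have been studied as markers of growth arrest, stress or lineage, and the PR is a ligand-activated transcription factor that binds DNA as a dimer.

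The sequences below were chosen because they are the small RNAs carried by the gene with the largest difference and by the imprinted genes, snoRNAs of the hosts whose entries differed, and the PR sites that lie inside *NEAT1* or hold a receptor motif. The mature miRNAs are from RefSeq on GRCh38.p14, 5′ to 3′, with the seed (bases 2 to 8) in capitals. No seed is shared among the 5.
miR-205-5p, within *MIR205HG*: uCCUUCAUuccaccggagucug
miR-205-3p, within *MIR205HG*: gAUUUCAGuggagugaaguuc
miR-675-5p, within *H19*: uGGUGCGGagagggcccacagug
miR-675-3p, within *H19*: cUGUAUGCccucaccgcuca
miR-770-5p, within *MEG3*: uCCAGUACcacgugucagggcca

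The snoRNAs are shown on the minus strand of GRCh37, the assembly of hg19, as their hosts are transcribed. Capitals mark every occurrence of the letters TGATGA, the core of the box C by which box C/D snoRNAs are bound. These letters were found in 11 of the 18 snoRNA entries of *GAS5* and *SNHG1*, and on either strand in 76.7% of the 262 SNORD entries and 4.90% of the 102 SNORA entries in the files.
SNORD79, within *GAS5*, chr1:173834488-173834568: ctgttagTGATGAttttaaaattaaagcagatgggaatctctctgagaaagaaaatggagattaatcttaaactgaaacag
SNORD76, within *GAS5*, chr1:173835773-173835853: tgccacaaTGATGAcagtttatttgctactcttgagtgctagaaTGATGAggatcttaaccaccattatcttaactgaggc
SNORD29, within *SNHG1*, chr11:62621376-62621440: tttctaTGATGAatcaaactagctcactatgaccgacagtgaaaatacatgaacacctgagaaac

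The PR sites are on the plus strand of the same assembly. Capitals mark ACANNNTGT, the inner 9 letters of the progesterone response element, where N is any base. The motif is its own reverse complement, so a search of either strand covers both. Neither stretch from *NEAT1* holds it, which says only that these letters are not in these windows.
*NEAT1* exon, whole site, chr11:65192315-65192598: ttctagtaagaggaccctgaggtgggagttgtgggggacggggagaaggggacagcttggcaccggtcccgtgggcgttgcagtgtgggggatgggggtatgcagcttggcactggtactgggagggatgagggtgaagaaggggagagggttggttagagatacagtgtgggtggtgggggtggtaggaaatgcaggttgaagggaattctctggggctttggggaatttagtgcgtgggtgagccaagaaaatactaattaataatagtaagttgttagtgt
*NEAT1* exon, middle of the other site, chr11:65190848-65190968: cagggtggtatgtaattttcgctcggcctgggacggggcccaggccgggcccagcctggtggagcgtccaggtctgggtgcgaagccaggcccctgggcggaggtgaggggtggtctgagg
*LTBP3* exon, downstream of *MALAT1*, chr11:65310474-65310594: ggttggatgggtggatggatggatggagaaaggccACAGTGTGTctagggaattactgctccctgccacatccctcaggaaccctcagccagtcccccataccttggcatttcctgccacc

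Levels are FPKM, fragments scaled by the authors to transcript length and library size, summed over the transcripts of a gene. The coverage in the files corresponded to 35151493 reads of 50 nt in EtOH and 36203604 in R5020. These figures count what the listed transcripts carry and are not the sequencing depth, for which the study's read totals are larger and in the opposite order. The cells carried luminal markers, with *ESR1*, *PGR*, *GATA3*, *FOXA1*, *KRT19* and *ERBB3* at 17.2 to 608 FPKM in EtOH, while none of 5 basal or mesenchymal markers (*KRT5*, *KRT14*, *TP63*, *VIM* and *ZEB1*) reached 1 FPKM. *KRT8* and *KRT18* had a failed estimate in EtOH. Of the markers of other cells, *PTPRC* of blood was at 0.0135 FPKM in EtOH and 0.00574 in R5020, *DCN* of fibroblasts at 0.284 and 0.154, *COL1A2* was listed at 0, and *COL1A1* stood at 5.12 and 3.31. The 4 progestin response genes *FKBP5*, *TSC22D3*, *ZBTB16* and *PDK4* were all higher in R5020, at log2 ratios of 1.40 to 2.38. These are bulk libraries, in which fewer cells of a type and less RNA per cell cannot be told apart.

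Ordered by FPKM in EtOH, the 9 genes ran from *NEAT1* at 352 through *TUG1*, *MIR205HG*, *GAS5*, *SNHG1* and *SNHG8* to *H19* at 0.456 and *MEG3*, which was listed at 0. The step from *NEAT1* to *TUG1* was 8.72-fold, and the 4 steps from *TUG1* down to *SNHG8* were of 1.54-fold to 1.74-fold. In R5020 the order was the same except that *MIR205HG* moved from the third place to the sixth. *GAS5* and *SNHG1*, neighbours in that order in R5020, differed by only 1.15-fold there. *MALAT1* had no estimate in either library.

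**Figure D1:**
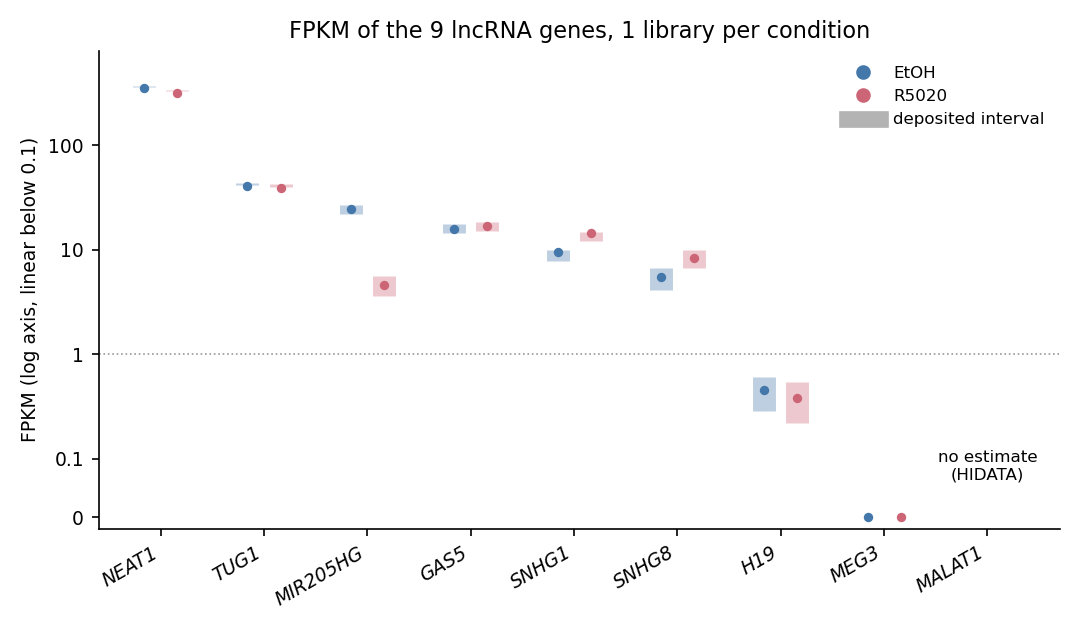
FPKM of each of the 9 lncRNA genes (log axis, linear below 0.1) in the EtOH library (blue) and the R5020 library (red), with the deposited interval of its highest transcript as a shaded bar and 1 FPKM as a dotted line. *MIR205HG* is the gene whose points lie farthest apart, *NEAT1* and *TUG1* lie just below their own intervals, and *MALAT1* has no estimate.

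The log2 ratio of a gene compares R5020 with EtOH after 1 is added to each FPKM, and a gene counted as higher or lower at 1.5-fold (0.58 on the log2 scale) if it had 1 FPKM or more in at least 1 library. On this scale low values are understated. Of the 9 genes, 6 had 1 FPKM or more, and of these 0 were higher and 1, *MIR205HG*, was lower in R5020. Over all 11018 genes retained in this way 7.67% were higher and 4.14% lower. Genes with a failed estimate were kept in these shares and in those of noncoding genes. That status was given to 9 of 41138 transcripts in EtOH and to 13 in R5020. Nothing is read from the count of the 9 lncRNA genes, since these values chose them. The median log2 ratio was 0.01 over the 6 lncRNA genes and 0.01 over all retained genes. Just short of the threshold were *SNHG1* at 1.48-fold and *SNHG8* at 1.44-fold, and the gene past it was *MIR205HG*, whose FPKM + 1 in R5020 was 0.221 times that in EtOH.

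*NEAT1* (chr11:65190269-65194003, plus strand) is a gene for RNA of nuclear paraspeckles. Among noncoding genes with an estimate and a transcript of 200 nt or longer, so without *MALAT1*, it had the highest FPKM in both libraries. It reached 352 FPKM in EtOH (rank 38 of all gene symbols) and 318 in R5020 (rank 46), a log2 ratio of −0.15. Coverage over its 3735-nt transcript corresponded to 126522 reads in EtOH and 110245 in R5020. The deposited intervals, 359.7 to 367.6 in EtOH and 327 to 335 in R5020, did not overlap, but in each library the FPKM lay below its own interval. *NEAT1* therefore differed by 9.72% between the libraries, less than the 1.5-fold threshold. The annotated gene is longer than the deposited transcript, at 22767 nt in GENCODE release 44, so the files list the short isoform only. The short isoform lies within the longer extent, so reads of a longer isoform there cannot be told apart from it. The longer isoform has no level of its own here. The entry for *MIR612*, an miRNA gene within the longer extent, was at 14.4 FPKM in EtOH and 7.46 in R5020. Its coverage corresponded to 72.1 and 36.1 reads, but the upper bounds of its intervals were 1.83 and 1.48 FPKM.

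*MALAT1* (chr11:65265233-65273939, plus strand), an abundant RNA of nuclear speckles, is the neighbour of *NEAT1*, 71.2 kb from the end of the deposited *NEAT1* transcript. Its single transcript of 8707 nt carried the status HIDATA, by which Cufflinks marks a locus with more fragments than it processes, and was listed at 0 in EtOH and in R5020. It was the only transcript of 41138 with that status in either library. The 0 is thus a missing estimate and not a level, and no change can be given for *MALAT1*.

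The mRNAs of proteins that meet these RNAs in nuclear bodies stayed within the threshold, and the proteins themselves were not measured. All 14 genes of paraspeckle and speckle proteins on the list had 1 FPKM or more, none passed 1.5-fold in either direction, and their median log2 ratio was 0.09. Over all retained genes 7.67% were higher and 4.14% lower, and nothing is read from the count of the 14. *NONO*, which binds *NEAT1*, stood at 50.3 FPKM in EtOH and 47.4 in R5020. *SFPQ*, its partner, stood at 63.6 and 73.4, and *SRSF2*, a splicing factor of speckles, had the highest log2 ratio of the list, 0.42, at 68.4 and 91.95.

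The snoRNA host genes of the set are *GAS5*, *SNHG1* and *SNHG8*. *GAS5* (chr1:173833039-173837125, minus strand), named for its accumulation in growth-arrested cells, stood at 15.9 FPKM in the vehicle and 16.7 after R5020, which is a log2 ratio of 0.07. Coverage corresponded to 890 and 905 reads. The intervals of *GAS5*, 14.3 to 17.5 and 15.1 to 18.4, overlapped over most of their width.

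*SNHG1* (chr11:62619460-62623360, minus strand) was estimated at 9.50 FPKM in EtOH against 14.5 in R5020, with intervals of 7.88 to 9.99 and 12.1 to 14.8 that did not overlap and coverage equal to 1018 and 1506 reads. *SNHG8* (chr4:119199917-119200978, plus strand) was estimated at 5.46 FPKM in EtOH against 8.33 in R5020, all of it from 1 of its 3 transcripts. Their log2 ratios were 0.56 and 0.53, and without the pseudocount both ratios were 1.53-fold, past the threshold. The intervals of *SNHG8*, 4.11 to 6.7304 and 6.7387 to 9.93, were apart by less than 0.01 FPKM. Counting *NEAT1* and *MIR205HG*, 4 of the 6 retained genes had intervals that did not overlap, as did 38.9% of the 6276 retained genes with a single transcript and 27.9% of the 423 noncoding genes among them. The intervals cover the estimation within a library and not the spread between cultures.

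The 10 other snoRNA host genes with 1 FPKM or more had a median log2 ratio of −0.22, with 0 higher, 1 lower and 9 in between. Over all retained noncoding genes the median was −0.09, with 5.92% higher and 7.44% lower. For those that RefSeq calls lncRNA the median was −0.14. *SNHG7* fell from 37.7 FPKM in EtOH to 17.7 in R5020, a log2 ratio of −1.05. *EPB41L4A-AS1* was next, at 10.3 and 6.66 FPKM and a log2 ratio of −0.56. *SNHG5*, *SNHG6* and *DANCR* had log2 ratios of −0.20, −0.36 and 0.01. *SNHG10*, *SNHG15* and *SNHG3* also lay above 0, at 0.38, 0.26 and 0.03. The host genes thus differed in direction among themselves.

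The small RNAs inside the hosts have entries of their own in the files, which the choice of the 9 genes did not use. *GAS5* holds 10 snoRNA entries and *SNHG1* holds 8, from 43 to 126 nt long. Of these 18, 9 were above 0 in at least 1 library, and all 9 were higher in R5020. Of the 9, 1 in *GAS5* and 4 in *SNHG1* were listed at 0 in EtOH, so they entered through R5020 and could only be higher. The other 3 in *GAS5* and 1 in *SNHG1* were above 0 in both libraries. Entries of the same host are not independent of each other, and nothing is read from the count. Over all 132 entries shorter than 200 nt that were above 0 in either library, 51.5% were higher in R5020. Over the 101 SNORD and SNORA entries among them, which include the 9, 52.5% were. Among the 17014 genes with a longer transcript the share was 48.5%. The summed FPKM of those 101 entries was 7427 in EtOH and 14909 in R5020.

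In *GAS5*, *SNORD47* was at 1023 FPKM in EtOH and 2092 in R5020, *SNORD79* at 391 and 1283, and *SNORD76* at 123 and 363. *SNORD80* was listed at 0 in EtOH and was at 407 in R5020, and the other 6 were listed at 0 in both. In *SNHG1*, *SNORD22* was at 18.8 FPKM in EtOH and 45.5 in R5020. *SNORD29*, *SNORD28*, *SNORD31* and *SNORD26* were listed at 0 in EtOH and were at 1108, 456, 397 and 311 in R5020, and the other 3 were listed at 0 in both. Summed over each host, the coverage of the snoRNA entries corresponded to 6034 reads in EtOH and 16831 in R5020 for *GAS5*, and to 159 and 9626 for *SNHG1*. These figures are converted from coverage and are not counts of reads. For *SNORD29* in R5020 the coverage corresponded to 3481 reads, while its deposited interval was only 0 to 2.92 FPKM. In *SNHG8*, *SNORA24* stood at 2.82 and 2.78.

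These small-RNA values are less certain than those of their hosts. All 17 values above 0 among the 23 small RNAs within the 9 genes exceeded the upper bound of their own deposited interval, by 2.46 times to 379 times with a median of 111 times. Only *SNORD28* had intervals that did not overlap between the libraries. The libraries were made from poly(A)+ RNA, and each of the 18 snoRNAs lies in an exon of some isoform of its host in GENCODE release 44, so reads of the snoRNA and of its host cannot be told apart. What this adds to the difference was not tested.

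**Figure D2:**
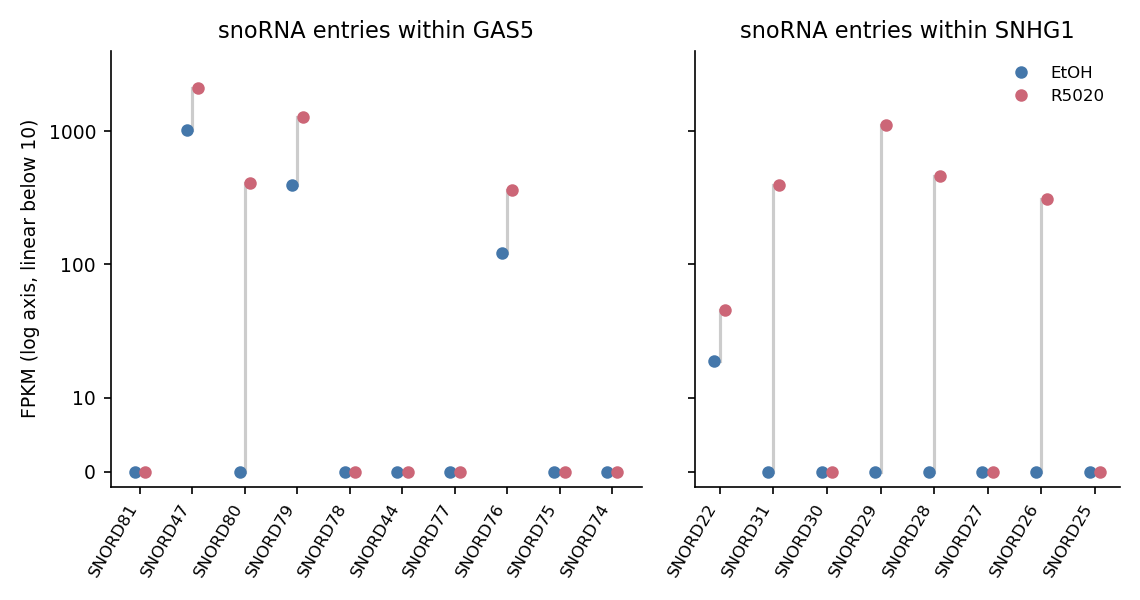
FPKM (log axis, linear below 10) of the 10 snoRNA entries within *GAS5* and the 8 within *SNHG1*, in their order along the genome, in the EtOH library (blue) and the R5020 library (red), with a line joining the values of an entry. In the 9 entries above 0 the red point lies above the blue one, and 5 of them are listed at 0 in EtOH.

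*MIR205HG* (chr1:209602168-209605892, plus strand), the host of miR-205, which is known for keeping epithelial cells from a mesenchymal state, had the largest difference of the set. Its FPKM fell from 24.5 in EtOH (interval 22.1 to 26.9) to 4.63 in R5020 (interval 3.65 to 5.61), a log2 ratio of −2.18 and a 5.29-fold difference without the pseudocount. Coverage over its 890-nt transcript was 106 in EtOH and 18.2 in R5020, which corresponds to 1892 and 323 reads. It moved from rank 1079 to rank 6043 of all gene symbols. Of the 524 retained noncoding genes 4, or 0.763%, had a lower log2 ratio, and of all 11018 retained genes 58, or 0.526%, did. The bounds of the intervals place its log2 ratio between −2.58 and −1.81, counting the estimation within a library only.

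The *MIR205* entry itself (chr1:209605478-209605587), in an intron of the host, was listed at 0 in both libraries, so the sequences of miR-205-5p and miR-205-3p above have no level here. The noncoding genes with the log2 ratios nearest to that of *MIR205HG* over the 2 libraries were *LOC645513*, *ARHGEF26-AS1* and *LOC100129931*, at −2.19, −2.26 and −2.31. All of these were listed at 0 in R5020, from 3.56, 3.79 and 3.96 FPKM in EtOH, the last with a failed estimate there. The nearest genes on either side of *MIR205HG*, *CAMK1G* at 151 kb and *PLXNA2* at 1185 kb, were below 0.1 FPKM in both libraries. Of the 9 other miRNA host genes in the files only *MIR22HG* and *DLEU2* had 1 FPKM or more, at 2.70 and 2.80 and at 2.01 and 2.03 in EtOH and R5020.

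The imprinted lncRNA genes of the set are *H19* and *MEG3*. *H19* (chr11:2016406-2019065, minus strand), expressed from the maternal copy and the host of miR-675, was at 0.456 FPKM in EtOH and at 0.380 in R5020. Its intervals, 0.289 to 0.607 and 0.222 to 0.539, overlapped, and coverage corresponded to 93.1 and 77.8 reads, so *H19* was detected below 1 FPKM without a change that could be called. *MEG3* (chr14:101292445-101327360, plus strand), the maternally expressed lncRNA of the *DLK1* domain, was listed at 0 for all 6 transcripts in both libraries, with interval bounds of 0 and the status OK. Unlike the 0 of *KRT8* in EtOH, which followed a failed estimate, the 0 of *MEG3* carries no mark of failure. With 1 library per condition it is still not read as an absence of *MEG3* RNA. *MIR675* and *MIR770*, the miRNA genes within them, were listed at 0 too.

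Of the 14 genes in the files from a list of imprinted genes, which covers other imprinted domains besides those of *H19* and *MEG3*, 3 had 1 FPKM or more, and none of them passed the threshold. *PEG10*, a paternally expressed gene of retrotransposon origin, stood at 15.3 FPKM in EtOH and 21.8 in R5020, *SNURF* at 13.9 and 17.7, and *PHLDA2* at 0.705 and 1.38. *IGF2*, which shares an imprinted domain with *H19*, was at 0.590 and 0.452, and *DLK1* was listed at 0.

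*TUG1* (chr22:31365634-31375380, plus strand), a broadly expressed and conserved lncRNA that GENCODE release 44 lists as protein-coding, was second to *NEAT1*. It was estimated at 40.35 FPKM in EtOH and at 39.3 in R5020, a log2 ratio of −0.04. The intervals, 41.5 to 43.5 and 40.1 to 42.1, overlapped, and as with *NEAT1* the FPKM lay below its own interval in each library. With coverage over 7104 nt equal to 27434 and 25672 reads, *TUG1* was among the better covered genes of the set and differed by 2.70%.

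Noncoding genes as a class gave the background for these lncRNAs. Noncoding genes were taken as symbols with only noncoding RefSeq transcripts, at least 1 of them of 200 nt or longer, which gave 2616 symbols, of which 524 had 1 FPKM or more in a library. *MIR205HG* carries a coding identifier in the files and is the member of the set outside this class. Among the 524 genes 5.92% were higher and 7.44% lower in R5020, with a median log2 ratio of −0.09. For the 272 of them that RefSeq calls lncRNA, the shares were 5.51% and 9.93% and the median −0.14. Of the 524, 175 are transcribed pseudogenes in RefSeq, whose reads can be shared with their parent genes.

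*LOC100507567* had the lowest log2 ratio among these noncoding genes, −2.95, from 6.71 FPKM in EtOH to a listed 0 in R5020. The lowest among those above 0 in both libraries was that of *DSCAM-AS1*, an lncRNA of estrogen receptor-positive breast cancer, which fell from 84.2 to 25.1 FPKM, a log2 ratio of −1.71. At the other end, *RPL21P28* was listed at 0 in EtOH and at 124 in R5020 but had the status LOWDATA in both and is a copy of the ribosomal gene *RPL21*, so its value is uncertain. *LUST* rose from a listed 0 to 4.75 FPKM, *AZGP1P1*, a pseudogene, from 0.362 to 5.99 and *LOC100499467* from 0.525 to 3.97. *SNORA74B*, listed at 0 in EtOH, was at 1.996 in R5020.

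**Figure D3:**
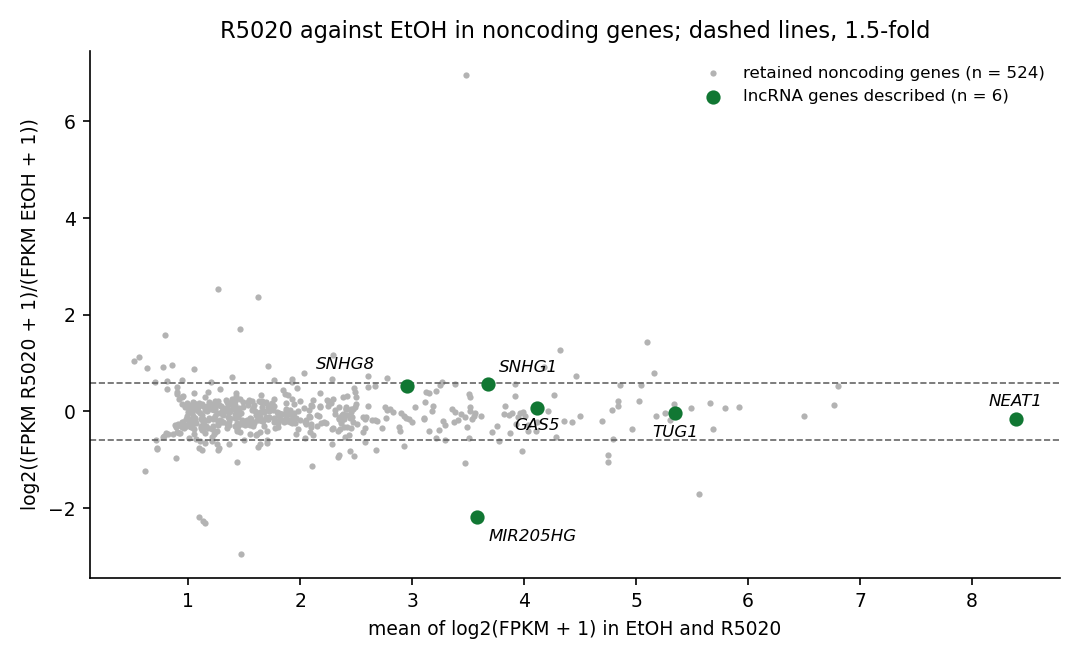
Log2 ratio of R5020 to EtOH against the mean of log2(FPKM + 1) in the libraries for the 524 retained noncoding genes (grey) and the 6 retained lncRNA genes described (green), with dashed lines at 1.5-fold. *MIR205HG* lies far below the lower line at −2.18, *SNHG1* and *SNHG8* lie just under the upper line, and *NEAT1* is the point farthest to the right.

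Among other lncRNAs studied in breast cancer, 11 of the 16 in the files had 1 FPKM or more, with 0 higher, 2 lower and a median log2 ratio of −0.29. Those lower were *DSCAM-AS1* and *HOTAIR*, a chromatin-associated lncRNA of the *HOXC* cluster, at 6.03 FPKM in EtOH and 2.66 in R5020. *CRNDE*, at 34.3 and 26.5 FPKM, *PVT1*, the neighbour of *MYC*, at 3.80 and 4.98, and *OIP5-AS1*, at 14.98 and 14.8, stayed between the thresholds. *SRA1*, known as a coactivator RNA of steroid receptors, stood at 5.49 and 5.23. The luminal markers *ESR1*, *PGR*, *GATA3* and *FOXA1* were lower in R5020 as well, at log2 ratios of −0.61, −0.60, −0.998 and −2.05, and their part in these differences was not tested.

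**Figure D4:**
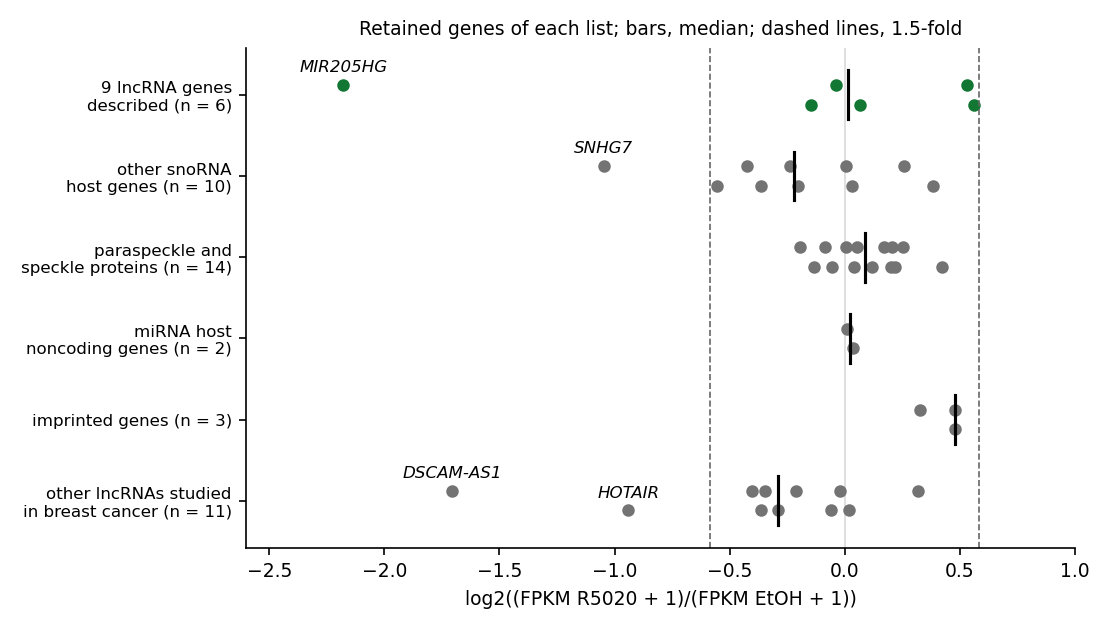
Log2 ratio of R5020 to EtOH of each retained gene, for the lncRNA genes described (green) and 5 lists of related genes (grey), with the median of each list as a bar and dashed lines at 1.5-fold. The named points are those past the lines, *MIR205HG*, *SNHG7*, *DSCAM-AS1* and *HOTAIR*, and all of them lie on the lower side.

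The PR binding sites around the genes were a second reading of the same loci, with the sites called by the authors against input DNA and no vehicle-treated ChIP library. Of the 9 genes 6 had a site in or within 50 kb. The share was 52.7% of all retained genes, 38.5% of the retained noncoding genes and 47.4% of those that RefSeq calls lncRNA. These shares cover retained genes only, while *MALAT1*, *H19* and *MEG3*, each with a site, were not retained. Of the 9, the retained genes *NEAT1*, *GAS5* and *SNHG1* had a site, and the retained genes *MIR205HG*, *SNHG8* and *TUG1* had none. These values too belonged to the choice of the genes. The 6 genes with a site held 23 different sites out of 11181, of which 2 were within reach of both *NEAT1* and *MALAT1*. The site score is 10 times the −log10 of the p-value of the peak caller, and the median score was 65.2 at these genes and 74.5 over all sites, with 8 of the 23 above the latter.

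*NEAT1* had 9 sites, the most of the set, and was the only gene with sites inside it. These were exonic, with midpoints 0.639 kb and 2.19 kb from its start, and their scores of 55.4 and 59.2 exceeded those of only 8.31% and 15.3% of all sites. The other 7 lay 21.8 to 43.4 kb from its deposited transcript with scores of 54.1 to 78.98, 5 of them upstream in *FRMD8* and *SLC25A45*. The longer GENCODE extent of *NEAT1* ends at chr11:65213011, and the first site downstream starts near it at chr11:65215841. Within 50 kb of that extent 11 sites were called. Sites near *NEAT1* were thus many but low in score. *FRMD8*, the closest upstream gene at 9.27 kb, stood at 3.44 FPKM in EtOH and 2.86 in R5020, and *SLC25A45* at 1.36 and 1.21.

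*MALAT1* had 8 sites. The nearest lay 4.41 kb upstream of its start with a score of 53.2, in the lowest 4.77% of all sites. The strongest, chr11:65307086-65308334 in an intron of *LTBP3*, had a score of 303, rank 119 of all sites, and lay 33.1 kb downstream. A further site in an *LTBP3* exon scored 115. *LTBP3*, which binds latent TGF-beta, was at 3.92 FPKM in EtOH and 3.08 in R5020, and did not pass the threshold.

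*H19* had 3 sites, at 14.7 kb and 43.8 kb downstream in introns of *MRPL23* with scores of 80.8 and 73.5 and at 20.2 kb upstream outside genes with a score of 88.7. *MEG3*, listed at 0, had a site of score 151, rank 442, 19.9 kb downstream in an exon of *RTL1*, and another of score 65.2 at 30.2 kb. *SNHG1* had a site of score 101 at 46.2 kb, in an exon 0.794 kb from the start of *NXF1*, and one of score 65.2 at 24.9 kb in *SLC3A2*. *GAS5* had a single site of score 57.6 at 39.6 kb, in an exon of *CENPL*. Sites were thus also called near *H19*, which was below 1 FPKM, and near *MEG3*, which was listed at 0.

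*MIR205HG*, the gene with the largest difference, had no site within 50 kb or within 100 kb. The nearest lay 217 kb away in an intron of *LAMB3* with a score of 51.9, above only 2.82% of all sites. *TUG1* had its nearest site at 147 kb, in *INPP5J*, with a score of 109, and *SNHG8* at 2614 kb, outside genes, with a score of 93.6. The farthest site counted within the limit of 50 kb lay 48.7 kb from *MALAT1*, and the nearest first site beyond it was that of *TUG1*. The chromosomes of these genes differed in how densely sites were called, from 1.13 per Mb on chromosome 4, which holds *SNHG8*, to 7.69 per Mb on chromosome 11, which holds *NEAT1*, *MALAT1*, *H19* and *SNHG1*, with 3.68 per Mb overall.

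**Figure D5:**
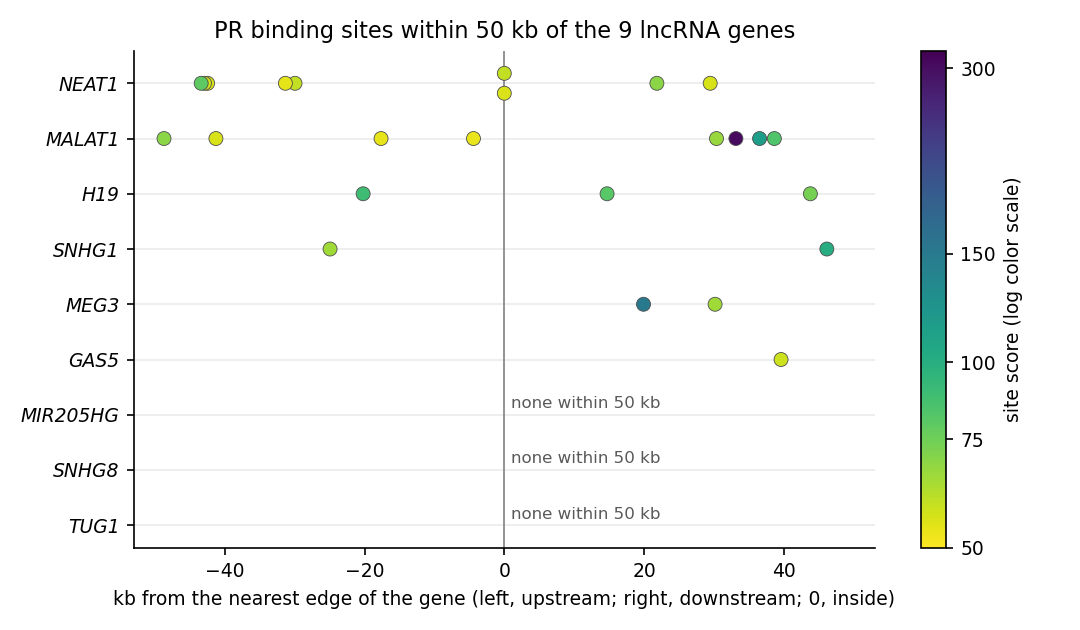
PR binding sites within 50 kb of each gene, placed by the distance in kb from the nearest edge of its deposited transcripts (upstream to the left, downstream to the right, 0 inside). Color gives the site score on a log scale from 50 (yellow) to over 300 (dark). *NEAT1* shows 9 sites, 2 of them inside, the darkest point is the site of score 303 downstream of *MALAT1*, and *MIR205HG*, *SNHG8* and *TUG1* have none.

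The motif ACANNNTGT was found in 1 of the 23 sites (4.35%), the *LTBP3* exon site printed above, as ACAGTGTGT at chr11:65310509-65310517. Over all 11178 sites on placed chromosomes 11.6% held it, and windows of the same width 5 kb before and after held it in 11.1% and 11.4%. The share was higher at higher scores, from 10.1% of 9355 sites below 100 to 41.0% of 239 sites at 200 or more, where the windows held it in 15.1% and 20.1%. Of the 23 sites at the lncRNA genes only the *LTBP3* intron site reached 200, and it does not hold the motif. In promoters, taken from RefSeq on GRCh38.p14 as 250 bases before the start and 50 from it on, 5.39% of 34796 held the motif. Of the 8 genes that matched, all but *NEAT1*, only *MEG3* held it.

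The genes adjoining the lncRNA genes were compared for a shared change. *SLC3A2*, 0.123 kb from *SNHG1* on the other side of its start and coding for the heavy chain of amino acid transporters, was at 37.1 FPKM in EtOH and 31.8 in R5020, while *SNHG1* was at 9.50 and 14.5. *ZBTB37*, 0.367 kb from *GAS5*, stood at 2.77 and 2.87. *PRSS12*, 0.214 kb from *SNHG8*, was near 0.02 in both, and *MORC2*, 1.45 kb from *TUG1*, at 6.49 and 5.89. None of these neighbours passed 1.5-fold, and *SNHG1* and *SLC3A2* had log2 ratios of opposite sign, 0.56 and −0.21. Whether the read counting used strand is not given in the sources used here, so reads of overlapping genes may have been shared.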

How the data were processed

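Processed files of 3 of the 4 libraries of T47D cells were used, R5020 and EtOH RNA-seq and PR ChIP-seq. The input DNA library enters only as the control of the peak caller. For RNA-seq the authors used TopHat to place 50-nt paired-end reads on hg19, kept uniquely placed reads, and deposited for each of 41138 RefSeq transcripts an FPKM value from Cufflinks with an interval, a status and a coverage. The FPKM is already divided by transcript length and library size, which leaves no counts to test. Coverage as deposited by the authors, a signal per base, gave the corresponding reads, as coverage times length over 50 nt, and an alternative to the FPKM. For ChIP-seq the authors aligned reads with Bowtie (version 1.1.2 in the submitters' processing notes), called sites with MACS and deposited a score of 10 times −log10 of the p-value for each.

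Genes with 1 FPKM or more in at least 1 library were retained and 1.5-fold was the threshold, after the methods of the study. The sum of transcripts by symbol and the 1 added to each FPKM were choices made here, and the Cuffdiff fold changes and p-values of the study were not used. Sites were tied to a gene when their nearest edge lay in or within 50 kb of its transcripts. Site midpoints were placed in GENCODE release 44 on GRCh37, and sequences were read from that assembly. With 1 library per condition no test was possible. The differences therefore compare these libraries. The 9 genes and the gene lists were chosen with earlier results of these data known. Genes named are the 9, members of the lists with 1 FPKM or more, the 5 largest rises and falls among noncoding genes, the 3 noncoding genes nearest in log2 ratio to *MIR205HG*, and the genes at the sites and beside the 9. *IGF2*, *DLK1*, small RNAs at 0, markers below 1 FPKM, the motif-holding and the strongest site near *MALAT1* and the sequences printed were chosen after their values were seen. Gene sums and calls without a pseudocount were tested on simulated data, and distances on set intervals. The calls with 1 added to each FPKM were not tested in this way. Scripts ran in Python 3.11.15 (pandas 2.3.3, numpy 2.4.6, matplotlib 3.10.9). The alternatives tried were other pseudocounts, filters, thresholds, scales, transcript sums, distances and site scores.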

Additional observations from a re-analysis of the deposited data

How the results depend on the processing

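No paired analysis was possible because there was 1 library per condition without a replicate number, and for the same reason no replicate could be left out. With a pseudocount of 0.1, and with none, 2 of the lncRNA genes were higher, *SNHG1* and *SNHG8*, instead of 0. The share of noncoding genes 1.5-fold higher was 8.99% with a pseudocount of 0.1, 9.75% with none, 1.38% without a filter, 3.80% with 1 FPKM in both libraries and 1.91% at 2-fold. The share lower was 14.7%, 16.4%, 1.57% without a filter, 1.72% at 2-fold and 21.8% from coverage in place of FPKM. Genes with a PR site numbered 2 of 9 at 10 kb and 3 of 9 for scores of 100 or more. The share was 19.5% and 13.5% of the retained noncoding genes, which do not include *MALAT1*, *H19* or *MEG3*. Filter, fold, distance and score change by construction how many genes or sites are admitted, and the cause of the other changes was not tested. The other 43 of 59 alternatives on counts, medians and shares stayed within 1.5 times or within their spread. Of 42 alternatives on single genes none reversed a called value, and coverage in place of FPKM moved 3, *NEAT1* to −0.24, *TUG1* to −0.14 and *MIR205HG* to −2.59. *MIR205HG* ranged from −2.59 to −2.18, and *GAS5*, not called, went from 0.07 to −0.02 with coverage. Coverage, no pseudocount, interval midpoints, GENCODE extents and the RefSeq lncRNA class were chosen after seeing the data.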
